A study of Mus musculus with 8 samples.

Results

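Expression of 8 genes of the neural crest and of the peripheral glia that descend from it was examined in sympathetic ganglia of mouse embryos. These genes were *Sox10*, *Foxd3*, *Sox2*, *Erbb3*, *Fabp7*, *Metrn*, *Phgdh*, and *Ednrb*, taken by symbol, and all 8 had a row in both tables of expression values. Together the tables held 14189 symbols, of which 12728 were in both. At E11.5, ganglia were taken from *Isl1* CKO embryos (*Wnt1-Cre;Isl1f/f*) and from control embryos (*Wnt1-Cre;Isl1+/+*), all with a *Rosa26-tdTomato* reporter. At E14.5, ganglia came from *Isl1* hypomorphic embryos (*Isl1f-neo/f-neo*) and from wildtype embryos. *Wnt1-Cre* acts in the neural crest, so the E11.5 deletion could reach glial as well as neuronal descendants, whereas the hypomorphic allele is not limited to the crest. Each group had 2 libraries, each from the pooled ganglia of about 10 or more embryos, which cuffdiff combined into 1 FPKM value per gene (fragments per kilobase of transcript, scaled to the mapped fragments of the library). The tables give neither single libraries nor read numbers. Read depth and replicate spread are thus unknown, no difference below was tested, and it cannot be said which neighbouring levels differ beyond replicate error.

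Neural crest cells leave the dorsal neural tube and give rise to sympathetic and sensory neurons, melanocytes, and the Schwann and satellite cells of peripheral nerves and ganglia. The HMG-box transcription factor SOX10 is held in crest cells and glia and lost from cells that become neurons. Migrating precursors along nerves depend on neuregulin, which ERBB3 binds, and respond to endothelin through EDNRB. ISL1 is a LIM homeodomain factor of the neurons of these ganglia. The comparisons ask how crest and glial genes stand in ganglia with less ISL1 at an early and at a later stage, and how they change as ganglia mature.

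In the mm9 assembly with GENCODE vM1 genes, *Sox10* lies on chromosome 15 from 78985343 to 78994920, *Foxd3* on chromosome 4 from 99322990 to 99325362, and *Sox2* on chromosome 3 from 34548927 to 34551383. *Erbb3* spans 128004579 to 128026708 of chromosome 10 and *Fabp7* spans 57504687 to 57508256 of the same chromosome. *Metrn* is on chromosome 17 from 25931516 to 25934081, *Phgdh* on chromosome 3 from 98117093 to 98143913, and *Ednrb* on chromosome 14 from 104213842 to 104243390. *Sox2* overlaps the noncoding gene *Sox2ot* and *Foxd3* a miRNA gene, each on the same strand, so counting by strand would not part their reads. *Metrn* overlaps a noncoding gene on the opposite strand, and whether reads were counted by strand is not given in the sources used here.

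RefSeq promoter windows in the GRCm38.p6 build (250 bases before and 50 after the start) were at hand for 6 of the 8 genes, all but *Sox10* and *Erbb3*. Both strands were searched for the letters ACAAAG, which SOX proteins can bind. The same was done for AACAAT, also of SOX proteins. Homeodomain letters were searched as TAATGG. The E box was spelled CANNTG. The TATA box was spelled TATAAA. No match in the 6 windows overlapped another. ACAAAG was found in *Sox2* alone of the 6 windows and in 18.7% of all 32851 windows. TATAAA was found in *Phgdh* alone and in 13.6% of all windows. E boxes were in 4 of the 6 and in 72.3% of all, the second SOX word was in 0 of the 6 and 10.7% of all, and the homeodomain word in 0 of the 6 and 7.73% of all. The 250 bases before the start are shown for *Sox2*, which had the SOX letters, and for *Fabp7* and *Phgdh*, whose levels moved apart between the stages. Capitals mark every match to the searched letters. They are the first SOX word and an E box that runs across the start in *Sox2*, 2 E boxes in *Fabp7*, and the TATA box word in *Phgdh*. A match is a description of letters only.
Sox2, chr3:34649745-34649994, plus strand: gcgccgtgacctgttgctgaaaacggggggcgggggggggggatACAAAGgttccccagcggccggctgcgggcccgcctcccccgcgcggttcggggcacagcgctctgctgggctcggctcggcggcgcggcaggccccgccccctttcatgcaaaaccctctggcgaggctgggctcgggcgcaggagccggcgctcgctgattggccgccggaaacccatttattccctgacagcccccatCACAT
Fabp7, chr10:57784673-57784922, plus strand: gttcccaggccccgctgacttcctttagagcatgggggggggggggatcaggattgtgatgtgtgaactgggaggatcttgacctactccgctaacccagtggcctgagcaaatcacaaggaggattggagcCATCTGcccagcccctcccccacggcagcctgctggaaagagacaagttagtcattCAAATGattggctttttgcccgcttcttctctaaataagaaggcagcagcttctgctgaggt
Phgdh, chr3:98339970-98340219, minus strand: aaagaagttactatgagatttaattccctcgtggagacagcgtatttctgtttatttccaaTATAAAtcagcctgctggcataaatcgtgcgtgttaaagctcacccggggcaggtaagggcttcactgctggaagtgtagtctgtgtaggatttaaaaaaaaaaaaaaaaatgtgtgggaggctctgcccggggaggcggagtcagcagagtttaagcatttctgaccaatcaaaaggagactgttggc

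The E11.5 ganglia had values for 13506 genes and the E14.5 ganglia for 13413, and in each 1 genotype or both reached 1 FPKM. The ganglia carried the genes of sympathetic neurons, with *Dbh* (noradrenaline synthesis) between 543 and 608 FPKM in the 4 groups. *Isl1*, the targeted gene, stood at 133 FPKM in the E11.5 control and 40.01 in the CKO. At E14.5 it stood at 162 in the wildtype and 83.1 in the hypomorph. The E11.5 CKO values stood apart from the other 3 groups. Erythroid genes took 11.2% of their FPKM sum, against 1.26% to 2.29% elsewhere. The embryonic globin gene *Hbb-y* was listed at 0, against 7552 FPKM in control, while the other 10 listed erythroid genes were higher in CKO ganglia. Whether that 0 is a level or a missing value cannot be told. The erythroid share and the FPKM sum of the CKO column count it as 0. The placental genes *Prl8a2* and *Prl7a1* had 48.4 and 7.88 FPKM, against 0.241 and 0.0304 in control. Both had a row only through the CKO value, which fixed their direction, and neither had a row at E14.5. The FPKM sum was 617263 in CKO and 476289 in control ganglia. Changes are given as the log2 ratio of FPKM + 0.1, and a change of 1.5-fold (0.58 on the log2 scale) was counted. On that count 2552 genes were higher and 1746 lower in CKO ganglia, and the split was 1262 higher and 4108 lower after both columns were scaled to the same sum, or 1648 and 3036 when erythroid genes were left out of that sum.

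All 8 genes were above 1 FPKM in every group, so the limit for a row did not bear on them. All 8 had higher FPKM in E11.5 *Isl1* CKO than in control ganglia, each by more than 1.5-fold, with log2 ratios from 0.72 to 1.40 and a median of 1.17. Of all 13506 genes, 18.9% were higher by that measure and 12.9% lower, and their median lay at 0.05. Among the transcription factors, *Sox10* measured 29.3 FPKM in control ganglia and 59.3 in CKO ganglia (log2 ratio 1.01). *Foxd3*, a forkhead factor of early crest and crest-derived precursors, had 8.74 and 22.6 FPKM (1.36). *Sox2*, a SOXB1 factor of neural progenitors and of Schwann cell precursors, was the least abundant of the 8 in both E11.5 groups, at 6.96 and 16.5 FPKM (1.23). With FPKM as deposited each of the 3 factors was thus at least 2-fold higher, and *Foxd3* and *Sox2* stayed under the level of *Sox10* in both groups.

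Of the 2 receptors, *Ednrb* measured 89.98 FPKM in control ganglia and 200.3 in CKO ganglia (log2 ratio 1.15). *Erbb3*, which lacks strong kinase activity of its own and signals with ERBB2, had 16.8 and 27.7 FPKM and the smallest ratio of the 8 (0.72). With FPKM as deposited, only *Erbb3* of the 8 genes was below a 2-fold change. *Fabp7*, a fatty acid binding protein of glial precursors, had 90.9 and 208 FPKM (1.19). *Metrn*, a secreted protein that promotes glial differentiation, had 55.8 and 117 (1.06). *Phgdh*, which catalyses the first committed step of serine synthesis, had 22.6 and 59.6 FPKM and the largest ratio (1.40). In the ranking of all 13506 log2 ratios, 4.37% of genes were above *Phgdh* and 14.8% above *Erbb3*, with the other 6 genes between these.

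**Figure D1:**
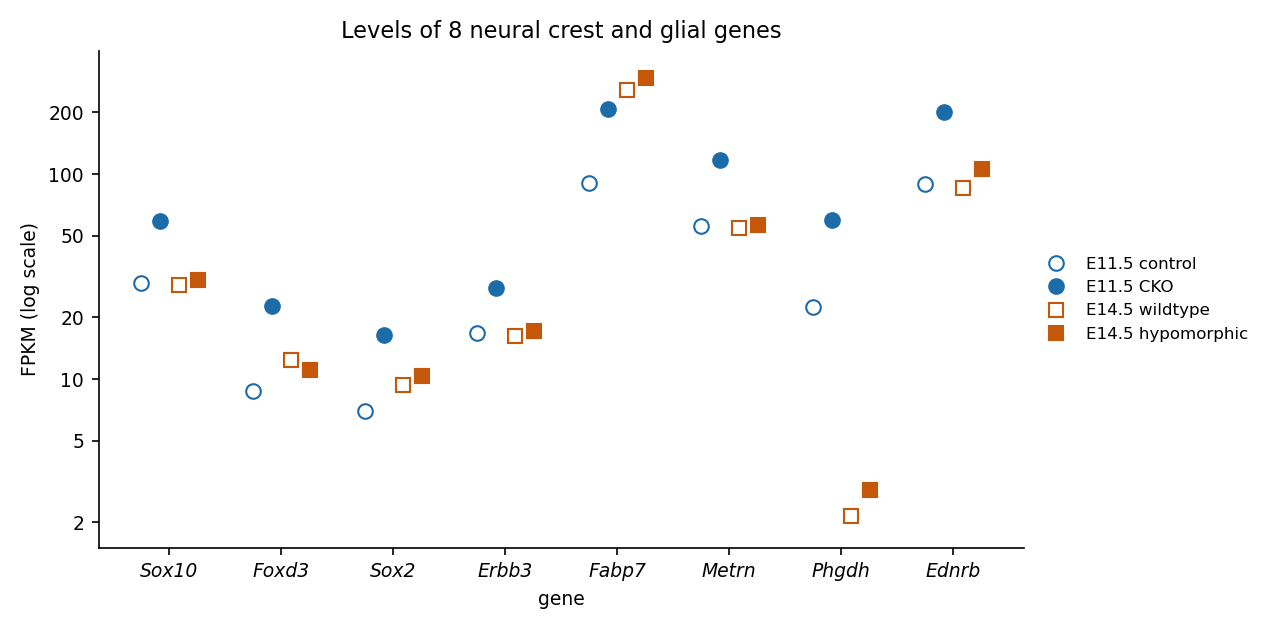
FPKM (log scale) of the 8 genes in the 4 groups, 1 value per group with both libraries combined and no error available; circles are E11.5, squares E14.5, open symbols control or wildtype, and filled symbols *Isl1* CKO or hypomorphic. At E11.5 every filled circle lies above its open circle, the 2 squares of each gene lie close together, and *Phgdh* drops from 22.6 and 59.6 FPKM at E11.5 to 2.14 and 2.88 at E14.5.

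The size of the E11.5 difference depended on the scaling of the CKO column, in which erythroid genes took 11.2% of the sum. Scaled to the same FPKM sum without erythroid genes, the log2 ratios ran from 0.48 (*Erbb3*) to 1.16 (*Phgdh*) with a median of 0.94, while the median of all genes was -0.18. Scaled to the same sum with all genes kept, they ran from 0.34 to 1.03 around a median of 0.80, with all genes at -0.32. *Erbb3* was no longer past 1.5-fold under either scaling and the other 7 genes were. The share of all genes that were higher was 12.2% without erythroid genes in the sum and 9.34% with all genes kept. Relative to the median of all genes, *Erbb3* was higher by 0.66, *Sox10* by 0.96 and *Phgdh* by 1.35 on the log2 scale with FPKM as deposited.

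**Figure D2:**
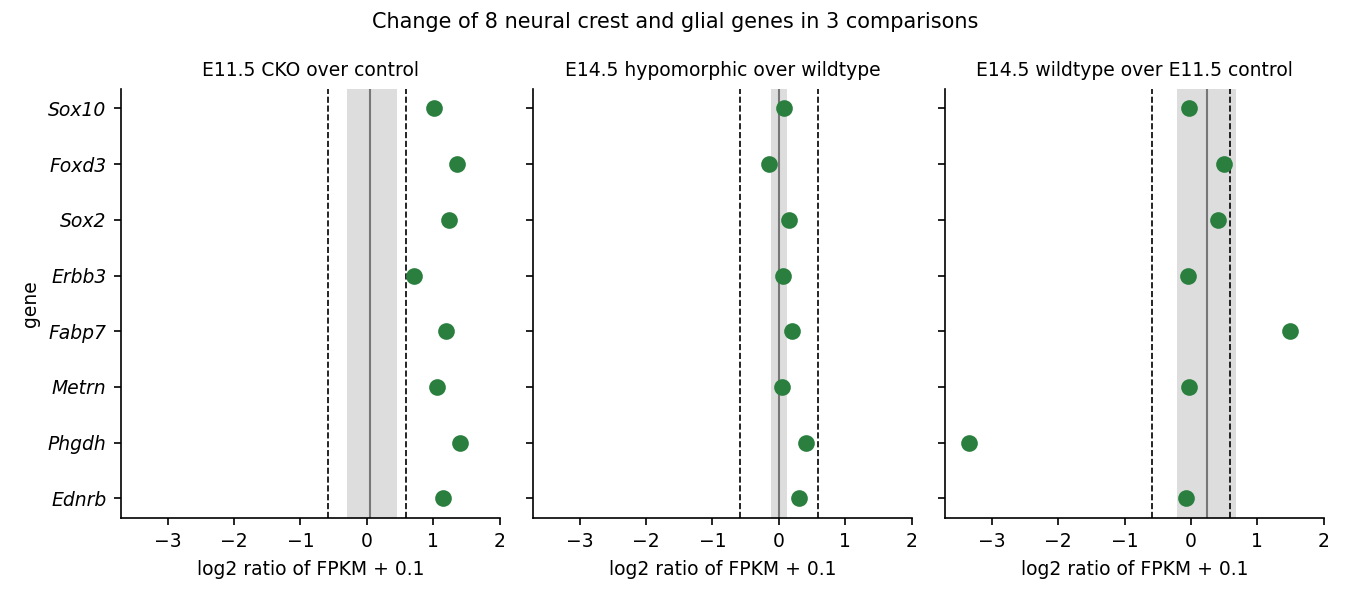
Log2 ratio of FPKM + 0.1 for each of the 8 genes (points) in 3 comparisons; the grey band spans the quartiles of all genes, the grey line is their median and the dashed lines mark 1.5-fold. All 8 points lie right of the 1.5-fold line at E11.5, none passes it at E14.5, and between stages *Fabp7* (1.497) and *Phgdh* (-3.34) lie outside the lines.

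Levels relative to *Sox10* within a group do not depend on how the columns were scaled. Because FPKM is per length, they also compare levels between genes. *Metrn* had 1.90 times the FPKM of *Sox10* in E11.5 control, 1.97 in CKO, 1.91 in E14.5 wildtype and 1.87 in hypomorphic ganglia. This was the narrowest range of the 7 genes, with the highest ratio 1.05 times the lowest. *Ednrb* stayed between 2.97 and 3.47 times *Sox10*, and *Erbb3* between 0.467 and 0.573, with its lowest value in CKO ganglia. *Foxd3* lay between 0.298 and 0.432 and *Sox2* between 0.237 and 0.341, both lowest in E11.5 control ganglia. *Fabp7* was at 3.098 and 3.502 times *Sox10* in the E11.5 groups and at 8.95 and 9.73 in the E14.5 groups. *Phgdh* was at 0.769 and 1.01 times *Sox10* at E11.5 and at 0.0746 and 0.0950 at E14.5. The order of *Fabp7* and *Ednrb* at the top of the 8 genes was the same in all 4 groups, though in control ganglia at E11.5 they were nearly equal, and *Phgdh* went from the middle of the order at E11.5 to the bottom at E14.5.

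**Figure D3:**
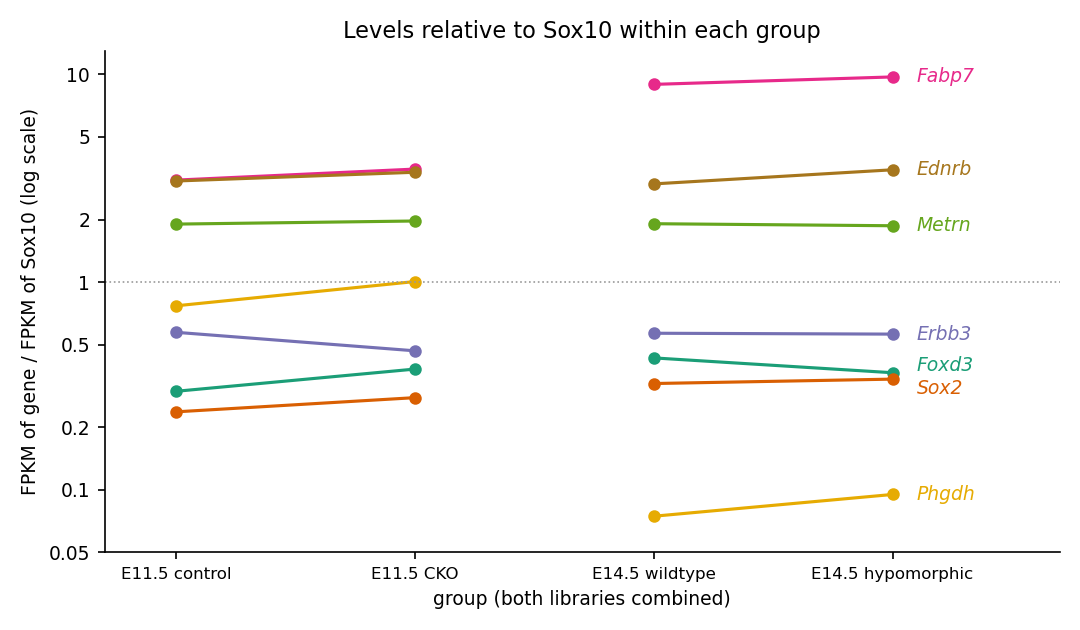
FPKM of 7 genes divided by the FPKM of *Sox10* in the same group (log scale), 1 value per group, with lines joining the 2 genotypes of a stage. *Metrn*, *Ednrb*, *Erbb3*, *Foxd3*, and *Sox2* keep nearly the same place in all 4 groups, *Fabp7* is higher at E14.5 and *Phgdh* lies at 0.769 in control and 0.0746 in wildtype.

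Among other genes of the same lineages, most were higher at E11.5 with FPKM as deposited. Of 15 further neural crest genes, 12 were listed, 11 of them were at least 1.5-fold higher in CKO ganglia and 0 lower, with a median log2 ratio of 0.73. Of the 11, 1 was under 1 FPKM in control ganglia and had a row only through its CKO value. The count of higher genes was 4 with the same FPKM sum without erythroid genes, where 12.2% of all genes were higher. It was 2 with the same sum of all genes, where 9.34% were. *Crabp1* and *Crabp2*, which bind retinoic acid, were at 386 and 39.6 FPKM in control ganglia and at 664 and 84.5 in CKO ganglia. The SOXE factors *Sox8* (7.39 and 12.2 FPKM) and *Sox9* (2.43 and 4.03) had log2 ratios of 0.72 and 0.71. *Snai1*, a factor of crest delamination, had 2.51 and 4.51 FPKM, and the low-affinity neurotrophin receptor gene *Ngfr* 27.7 and 46.1. The transcription factor gene *Ets1* had 14.7 and 24.2 FPKM (0.72).

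Of 21 further glial and Schwann cell precursor genes, 17 were listed, 13 were at least 1.5-fold higher in CKO ganglia and 1 was lower, with a median log2 ratio of 0.94. Of the 13, 1 likewise had a row only through its CKO value. The count of higher genes was 11 with the same FPKM sum without erythroid genes and 7 with the same sum of all genes, beside 12.2% and 9.34% of all genes. *Apoe*, a lipid carrier of glia and of macrophages, had 67.7 and 147 FPKM (1.11), and *S100b*, a calcium-binding protein of glia, 1.63 and 4.06 (1.27). *Serpine2*, a secreted protease inhibitor, had 52.04 and 100.2 FPKM (0.94), and the peripheral myelin gene *Pmp22* 89.7 and 110.4 (0.30). The lower gene was *Gfra3*, a GDNF family receptor of glial precursors that neurons also express, with 68.0 and 45.0 FPKM (-0.59).

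The partners of the receptor genes did not all follow them. In the neuregulin and ErbB list 8 of 11 genes were listed. Of these 2 were higher by 1.5-fold or more and 0 lower (median log2 ratio 0.34), beside 18.9% and 12.9% of all genes. The 2 higher genes were *Erbb2* and *Nrg3* (0.508 and 1.01 FPKM), and *Nrg3* had a row only through its CKO value. With the same sum of all genes 0 of the list were higher, where 9.34% of all genes were. *Erbb2*, which encodes the kinase partner of ERBB3, had 6.45 and 11.6 FPKM (0.84). *Nrg1*, the ligand that neurons supply, had 2.60 and 2.46 (-0.08), and the sheddase gene *Adam10* 53.1 and 61.1 (0.20). In the endothelin list all 7 genes were listed and 2 were higher, *Kel* and *Edn2* (median 0.55). The counts of higher genes in both lists were thus near the share of all genes. *Edn2* was under 1 FPKM in control ganglia, so that its row, and with it its direction, rested on the CKO value. *Edn3*, the ligand gene of crest cells, had 2.996 and 3.31 FPKM (0.14), *Edn1* had 1.31 and 1.96 (0.55), and *Ece1*, which encodes the enzyme that activates endothelins, had 8.41 and 8.87 (0.08). The other receptor gene, *Ednra*, had 14.4 and 21.3 FPKM (0.57), against 89.98 and 200.3 for *Ednrb*.

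*Phgdh* differed from other genes of serine and one-carbon synthesis, a list wider than its own pathway. The list held 10 such genes, amino acid transporter genes among them, and all had a row. Of these 0 were higher by 1.5-fold in CKO ganglia and 3 were lower, beside 18.9% and 12.9% of all genes. Their median log2 ratio was -0.11. *Psat1* and *Psph*, which encode the next enzymes of serine synthesis, were at 77.8 and 7.54 FPKM in control ganglia and at 82.2 and 9.49 in CKO ganglia (0.08 and 0.33). *Shmt2*, which makes glycine from serine in mitochondria, had 45.0 and 41.2 FPKM (-0.13), and the mitochondrial folate enzyme gene *Mthfd2* 42.7 and 24.8 (-0.78). The level of *Phgdh* was 22.6 FPKM against 77.8 for *Psat1* in control ganglia, and 59.6 against 82.2 in CKO ganglia.

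**Figure D4:**
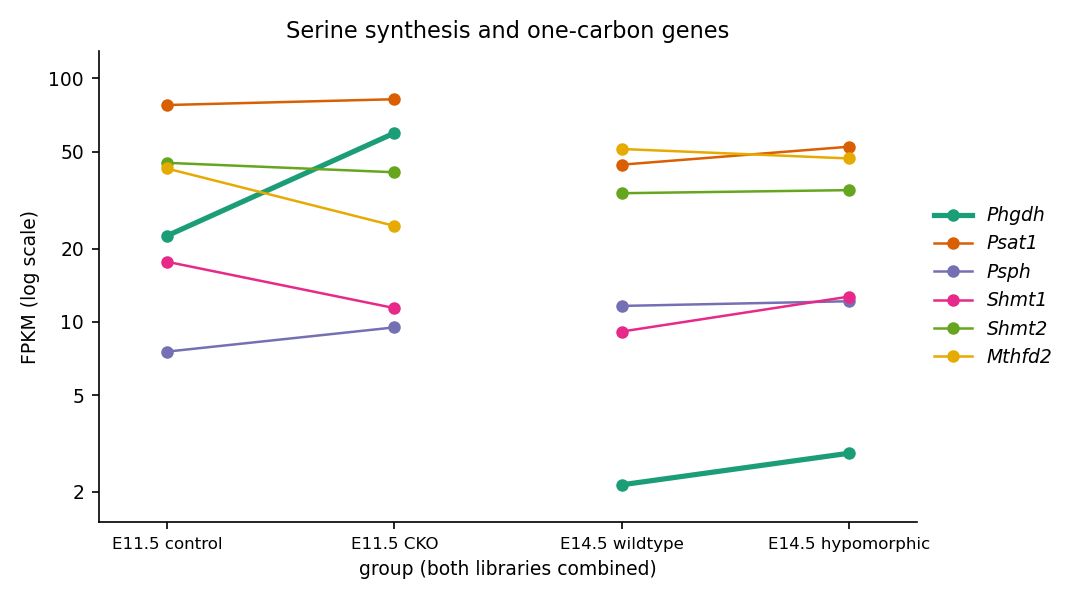
FPKM (log scale) of *Phgdh* (thick line) and 5 genes of serine and one-carbon synthesis in the 4 groups, 1 value per group, with lines joining the 2 genotypes of a stage. *Phgdh* has 22.6 FPKM in E11.5 control, 59.6 in CKO, 2.14 in E14.5 wildtype and 2.88 in hypomorphic ganglia, while *Psat1* stays between 44.2 and 82.2.

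Genes of the neurons were lower and genes of several other cell types higher in the same CKO libraries. In these bulk samples fewer cells of a type and less RNA per cell cannot be told apart. Of 16 sympathetic neuron genes, *Isl1* among them, 0 were higher and 9 lower (median log2 ratio -0.67). Of 15 pan-neuronal genes 0 were higher and 5 lower (-0.46), or 11 lower with the same FPKM sum. The share of all genes that were lower was 12.9%, or 30.4% with the same FPKM sum. The 4 most abundant pan-neuronal genes were not alike. *Nefl* and *Nefm*, of the neurofilaments, were at 1008 and 724 FPKM in control ganglia and at 507 and 253 in CKO ganglia. *Uchl1*, a ubiquitin hydrolase gene, had 594 and 426 FPKM (-0.48), and the tubulin gene *Tubb3* had 658 and 767 (0.22). Of 10 mesenchyme genes 7 were higher (0.75), or 1 with the same FPKM sum, and their summed FPKM was 774 and 1317. Of 9 listed macrophage genes 8 were higher (1.22, summed FPKM 46.4 and 107), and of 9 skeletal muscle genes 5 (0.70, 251 and 409), 1 of them under 1 FPKM in control ganglia. Of 10 endothelial genes 2 were higher (0.42, 81.3 and 105), a count near the 18.9% of all genes that were higher. With the same FPKM sum 9.34% of all genes were higher. Under that scaling 7 macrophage genes (median 0.84), 0 muscle and 0 endothelial genes were higher. Sensory neuron genes were low, with a sum of 11.5 and 20.03 FPKM over the 6 of 10 that were listed. Of the 4 that were higher, 3 were under 1 FPKM in control ganglia and so had a row only through the CKO value, which fixed their direction. The summed FPKM of the 8 crest and glial genes was 321 and 710. The part of a changed mix of cells in their higher FPKM was not tested.

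Neural tube and melanocyte precursors also express some of the 8 genes, *Sox2* and *Fabp7* in the former and *Sox10* and *Ednrb* in the latter. Of 12 neural tube progenitor genes only *Nes* and *Irx3* had a row at E11.5, and *Pax6*, *Olig2*, *Nkx2-2*, and *Pax7* had none at either stage. *Irx3* stood at 0.438 FPKM in control ganglia and 1.07 in CKO ganglia. It had a row only through its CKO value, which fixed its direction. *Nes*, which mesenchyme and glia also express, had 20.3 and 23.8 FPKM. Of 8 melanoblast genes only *Kit* (6.45 and 6.64 FPKM) and *Mitf* (1.84 and 0.954) had a row, and *Dct*, *Tyr*, *Tyrp1*, *Pmel*, and *Mlana* had none. Genes without a row were not analysed here.

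**Figure D5:**
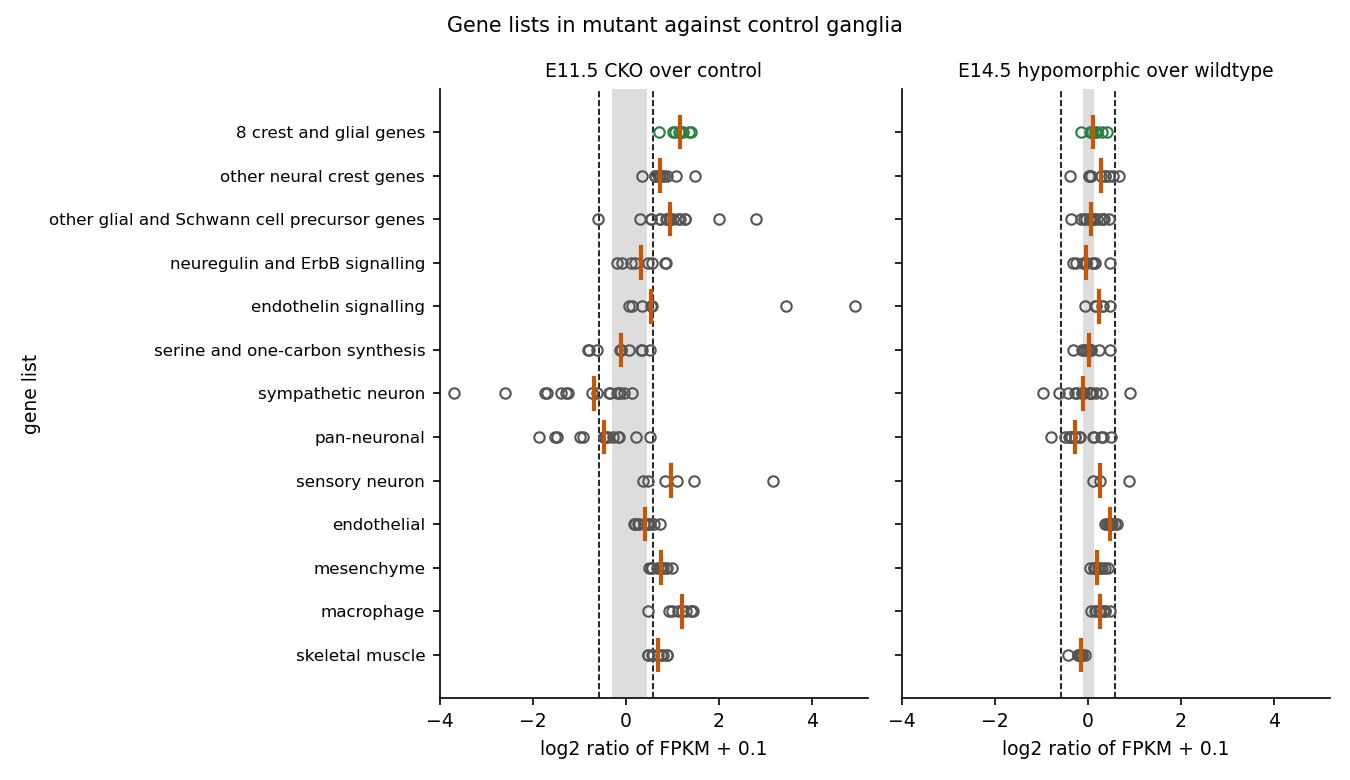
Log2 ratio of FPKM + 0.1 of every listed gene (circles) and its list median (orange bar) for 13 gene lists, at E11.5 (left) and E14.5 (right); the grey band spans the quartiles of all genes and the dashed lines mark 1.5-fold, with the erythroid, placental, yolk sac, mesonephros, neural tube, melanoblast, *Sox*, and *Fabp* lists not drawn. At E11.5 the 8 crest and glial genes (median 1.17) lie to the right beside the macrophage list (1.22), and at E14.5 they lie near 0 (median 0.12).

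At E14.5, 0 of the 8 genes were 1.5-fold apart between *Isl1* hypomorphic and wildtype ganglia in either direction, where 2.89% of 13413 genes were higher and 2.12% lower. Their log2 ratios ran from -0.15 to 0.41 with a median of 0.12, beside a median of 0.003 for all genes. *Sox10* measured 28.7 FPKM in wildtype ganglia and 30.4 in hypomorphic ones (log2 ratio 0.08), *Metrn* 54.8 and 56.7 (0.05), and *Erbb3* 16.3 and 17.1 (0.07). *Foxd3* was the only gene with a lower value, 12.4 and 11.1 FPKM (-0.15), and *Sox2* had 9.31 and 10.4 (0.15). *Fabp7*, the most abundant, had 257 and 295 FPKM (0.20). The largest ratios were those of *Ednrb*, 85.2 and 105 FPKM (0.31), and *Phgdh*, 2.14 and 2.88 (0.41). Of all genes, 9.71% were above *Ednrb* and 6.11% above *Phgdh* in this comparison.

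The glial and serine lists had medians close to 0 at this stage. Several lists lay above 0, among them the neural crest, endothelial, macrophage (0.27), and mesenchyme (0.19) lists. The pan-neuronal (-0.27) and skeletal muscle (-0.15) lists were among those below it. Of 17 glial and Schwann cell precursor genes 0 were higher and 0 lower (median log2 ratio 0.06), with *Apoe* at 222 and 227 FPKM and *S100b* at 1.89 and 2.41. Of 11 listed neural crest genes 1 was higher, *Crabp1*, at 64.6 and 103 FPKM (0.67), and 0 were lower (median 0.29). *Ngfr* had the lowest ratio of them, 49.5 and 38.1 FPKM (-0.38). *Erbb2* had 6.74 and 7.34 FPKM (0.12), and *Nrg1* 5.33 and 4.23 (-0.33). Of 10 serine and one-carbon genes 0 were called in either direction (0.02). All 10 endothelial genes had ratios between 0.36 and 0.63, with summed FPKM of 109 and 152, and 2 were past 1.5-fold. *Ednrb*, which endothelial cells also express, lay at 0.31, and their part in its value was not tested. The 2 mutants differ in allele, in stage and in the amount of *Isl1* left, which cannot be told apart here.

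Between the stages, *Fabp7* had 90.9 FPKM in E11.5 control and 257 in E14.5 wildtype ganglia (log2 ratio 1.497), and *Phgdh* had 22.6 and 2.14 (-3.34). These were the only 2 of the 8 genes past 1.5-fold, 1 in each direction, where 29.7% of the 12707 genes compared were higher and 12.7% lower. Centred on the median of all genes, 2440 were higher and 2473 lower, and *Fabp7* and *Phgdh* were at 1.26 and -3.57. The stages come from tables normalised separately, and with the stage the reporter, the Cre allele, and the removal of tissue without fluorescence also differ, so they cannot be told apart from it. The median of all genes was 0.24, and 5.55% of genes lay above *Fabp7* and 1.24% below *Phgdh*. The fold of *Phgdh* was thus near the end of the whole range, and its level went from above 70.7% of genes in the E11.5 control column to above 11.1% in the E14.5 wildtype column.

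The other 6 genes differed by less than 1.5-fold between the control groups of the stages, with *Foxd3* and *Sox2* the farthest apart. *Sox10* had 29.3 and 28.7 FPKM (log2 ratio -0.03), *Metrn* 55.8 and 54.8 (-0.03), *Erbb3* 16.8 and 16.3 (-0.05), and *Ednrb* 89.98 and 85.2 (-0.08). *Foxd3* had 8.74 and 12.4 (0.50) and *Sox2* 6.96 and 9.31 (0.41). With the log2 ratios centred on the median of all genes, *Sox10*, *Metrn*, *Erbb3*, and *Ednrb* lay between -0.32 and -0.26, and *Foxd3* and *Sox2* at 0.26 and 0.18. Under the scalings tried *Sox10* ranged from -0.27 to 0.05, and the sign of the other 3 near 0 also changed. All 6 stayed under 1.5-fold under each of these scalings, though *Foxd3* reached 0.581 with the same FPKM sum, just below the threshold of 0.585. The CKO values of E11.5 lay above the E14.5 wildtype values for 7 of the 8 genes, *Fabp7* being the exception (208 and 257 FPKM).

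Around them the lineage genes parted between stages. Of all genes 29.7% were higher and 12.7% lower at E14.5, with a median log2 ratio of 0.24. Centring on that median lowered each ratio given here by 0.24. Of 11 further neural crest genes 7 were lower and 1 higher at E14.5 (median log2 ratio -0.92), with *Crabp1* at 386 and 64.6 FPKM (-2.58), *Sox8* at 7.39 and 2.88 (-1.33), and *Sox9* at 2.43 and 1.03 (-1.17). Of 17 glial genes 8 were higher and 2 lower (0.55). *Apoe* had 67.7 and 222 FPKM (1.71), while the cadherin gene *Cdh19* had 6.02 and 2.04 (-1.52). Of the 10 serine and one-carbon genes 3 were higher and 2 lower, counts near the shares of all genes. *Psat1* was at 77.8 and 44.2 FPKM (-0.81) and *Psph* at 7.54 and 11.6 (0.62). *Nrg1* had 2.60 and 5.33 FPKM (1.004). Pan-neuronal genes were higher in 12 of 15 cases (1.01).

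The profile over the 4 groups was compared with that of *Sox10* for 10746 genes in both tables with an FPKM of 5 or more in at least 1 group, by the Euclidean distance of the log2(FPKM + 0.1) values after centring each gene on its mean. *Metrn* was the nearest gene of all, at a distance of 0.0554, and *Sox10* was in turn the nearest of the 8 to *Metrn*, *Ednrb* (0.189), and *Erbb3* (0.245). Among the 8, *Foxd3* and *Sox2* were nearest to each other (0.271). Other genes were nearer in most of these cases, 39 to *Foxd3*, 103 to *Sox2*, 302 to *Erbb3*, 30 to *Ednrb*, and 1 to *Metrn*. *Fabp7* had 3349 other genes nearer than any of the 8, and *Phgdh* had 1191. *Phgdh* was farthest from each of the others, with *Fabp7* at 4.84. Apart from the 8, the genes nearest to *Sox10* included *Tspyl3*, *Loxl3*, *Ctss*, *Wwtr1*, *Efemp2*, *Prrx2*, and *Sema3c*, at 0.0829 to 0.0955. *Efemp2*, which encodes an extracellular matrix protein, had log2 ratios of 1.04 at E11.5, 0.03 at E14.5, and -0.07 between stages. These distances rest on 4 values a gene and are a description.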

How the data were processed

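RNA was prepared by the authors from pooled sympathetic ganglia, and polyA RNA-seq libraries were made, 2 per group. Per the methods, reads were aligned to mm9 with TopHat. Expression was estimated with cuffdiff, and the authors deposited the FPKM values of each stage in 1 table, with both libraries of a genotype combined and genes kept where 1 genotype or both reached 1 FPKM. The labels list other versions of these tools and a fly genome build. Of the symbols, 92.2% (E11.5) and 92.3% (E14.5) are in the mouse GENCODE vM1 annotation. The deposited log2 fold changes and p-values are the authors' own comparison and were not used.

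Samples were grouped by their titles. Log2 ratios of FPKM + 0.1 were computed here for CKO against control, hypomorphic against wildtype, and E14.5 wildtype against E11.5 control, the last over 12707 unique symbols that were not turned into dates. A 1.5-fold change was counted and set beside its share among all genes. No test was possible. The limit of 1 FPKM in either column removed 0 rows. The 8 genes, the gene lists and the alternatives were chosen with earlier results of these data known. Genes were named as the 8, as their listed partners, as up to 4 of the highest mean FPKM in a list, or as the 8 nearest to *Sox10*. Some genes under this rule are not reported here. *Edn2*, *Nrg3*, *Cdh19*, and markers without a row were chosen after their values were seen. The arithmetic of ratios and counts was checked on simulated data with known changes, which do not hold the unknown replicate spread of the real libraries. Python 3.11.15, numpy 2.4.6, pandas 2.3.3, and matplotlib 3.10.9 were used.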

Additional observations from a re-analysis of the deposited data

How the results depend on the processing

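Each comparison was repeated with a pseudocount of 1 or 0.01, no filter, an FPKM of 5 or more in either column, centring on the median, the same FPKM sum with or without erythroid genes, the same upper quartile, and fold thresholds of 2 and 1.2. A log2 ratio counted as moved past 0.26, and a count past 1.5 times. The E11.5 median of the 8 genes was 0.80, against 1.17, with the same FPKM sum, and the 8 genes then ran from 0.34 to 1.03. At 1.2-fold, 2 genes were higher at E14.5, against 0, and 3 between stages, against 1, where 12.2% and 48.3% of all genes were higher. No ratio of the 8 genes past 1.5-fold changed sign. Of 191 alternative values for single genes of the 8, 9 moved, 8 of them with the same FPKM sum at E11.5 and 1 with a pseudocount of 1 (*Phgdh* between stages, -2.91). The settings without a filter and with an FPKM of 5 or more leave a gene's ratio as it is, so their values could not move. Leaving erythroid genes out of the sum shifted the E11.5 median of all genes by -0.23, just under the limit of 0.26. *Erbb3* did not count as moved there, though it fell below 1.5-fold (0.48). Counts over all genes between stages went from 3777 higher and 1619 lower to 2440 and 2473 with centring. Other gene lists moved in 195 of their 1622 alternative values. No paired analysis was possible because the columns combine the replicates of a genotype and carry no replicate number, and for the same reason no replicate could be left out. Depth is unknown.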

Other observations

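Relatives of the 8 genes had other patterns. *Fabp5*, another fatty acid binding protein gene, had 346 FPKM in E11.5 control, 329 in CKO, 78.4 in E14.5 wildtype, and 68.9 in hypomorphic ganglia, so that its level was 3.81 times that of *Fabp7* in E11.5 control and 0.305 times in E14.5 wildtype ganglia. *Fabp3*, a fatty acid binding protein gene of muscle, had 9.54, 91.2, 5.47, and 4.28 FPKM in the same order, with a log2 ratio of 3.24 between CKO and control. *Metrnl*, the relative of *Metrn*, stayed between 0.880 and 2.11 FPKM. The SOXC genes of immature neurons, *Sox4* and *Sox11*, stood at 136 and 54.6 FPKM in control ganglia and at 82.2 and 37.1 in CKO ganglia (-0.73 and -0.56), against higher values for *Sox8*, *Sox9*, and *Sox10*.

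In the endothelin list, *Kel*, which encodes a blood group protein of red cells that also cleaves endothelin precursors, stood at 3.77 FPKM in E11.5 control and 41.9 in CKO ganglia, beside erythroid genes that took 2.29% and 11.2% of the FPKM sum. *Edn2* had 0.0595 and 4.78 FPKM, and had a row only through the CKO value. *Sox3* and *Hes5* had a row at E14.5 alone, at 5.91 and 2.65 FPKM in wildtype and 5.21 and 2.34 in hypomorphic ganglia.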
